A study of Homo sapiens with 6 samples.

Results

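The Kruppel-like factors measured here are 10 transcription factor genes (KLF2, KLF3, KLF4, KLF5, KLF6, KLF7, KLF9, KLF10, KLF11 and KLF13) out of 60683 genes in the count table, of which 15321 had enough reads to be tested. They were chosen by family name and by the comparison of ATF4 KO with parental cells itself, because KLF4 was high in the knockout while most immediate early genes were low. The levels, fold changes and calls of these 10 genes in that comparison are therefore given as a description, and their calls are not used as tests. All 10 passed the filter on low counts. A gene is said to be called where its adjusted p in the edgeR test over all tested genes was under 0.05. Gene coordinates are those of GENCODE 29 on GRCh38. RNA sequencing was carried out on RCC4, an established human line of clear cell kidney cancer without working VHL, in 3 libraries labelled ATF4 KO and 3 libraries of parental cells, labelled wild type. Both groups share the RCC4 background, and no treatment is named. How the knockout was made, and whether its cells are 1 clone or a mixture and the replicates separate cultures, is not in the labels. Adjusted p-values thus measure only the spread between these libraries, which may be technical.

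Kruppel-like factors carry a run of C2H2 zinc fingers at the C-terminus and bind GC-rich sites and CACCC boxes, as do the related SP proteins. They fall into 3 groups by cofactor. KLF2, KLF4, KLF5, KLF6 and KLF7 mostly activate transcription with acetyltransferases such as EP300 and CREBBP, KLF3 represses through CtBP, and KLF9, KLF10, KLF11 and KLF13 recruit Sin3A with histone deacetylases. Several are induced within minutes to hours of growth factors, shear stress or hormones, so that they overlap with the immediate early genes. In the kidney, members of the family are known from podocytes, endothelium and tubular epithelium.

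The promoters of KLF4 and KLF2, the members that differed most between the groups, are shown to set out the letters that family members and the regulators named below can bind. The windows are the 250 bases before a RefSeq start site (GRCh38.p14), printed 5′ to 3′ on the gene's strand, with GC boxes (GGGCGG on either strand) and the MEF2 site in capitals. The KLF4 window is chr9:107489770-107490019 on the minus strand and the KLF2 window is chr19:16324576-16324825 on the plus strand.
KLF4: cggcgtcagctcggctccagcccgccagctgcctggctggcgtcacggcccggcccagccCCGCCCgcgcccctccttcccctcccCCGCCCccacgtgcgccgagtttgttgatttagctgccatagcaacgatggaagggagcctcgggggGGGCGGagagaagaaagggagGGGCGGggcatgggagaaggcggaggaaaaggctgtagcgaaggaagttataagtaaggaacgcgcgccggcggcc
KLF2: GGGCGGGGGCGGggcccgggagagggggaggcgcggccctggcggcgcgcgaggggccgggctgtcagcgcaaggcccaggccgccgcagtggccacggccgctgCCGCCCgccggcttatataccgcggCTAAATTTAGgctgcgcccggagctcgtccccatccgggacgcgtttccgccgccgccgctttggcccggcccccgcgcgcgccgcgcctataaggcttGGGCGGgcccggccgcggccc
Each window held 4 GC boxes. The KLF2 window also held the MEF2 site that starts 120 bases before the start site, and the KLF4 window held none.

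RefSeq windows were matched for 8 of the 10 genes (13 windows), and KLF3 and KLF10 were unmatched. A GC box was found in 7 of the 8 genes, against 42.6% of all 35116 windows of the same length, and a CACCC box (either strand) in 4 genes, against 54.7% of windows. The remaining motifs were rare. The cyclic AMP response element TGACGTCA (1.65% of windows) was found only for KLF11, the CArG box bound by SRF (1.16%) only for KLF7, and the MEF2 site (2.8%) only for KLF2. The AP-1 site (TGAGTCA or TGACTCA, 4.2% of windows) and the CARE element TGATGNAA, a sequence bound by ATF4 with C/EBP proteins (3.14%), matched in none of the 8 genes. The gene counts take a match in any window of a gene, while the percentages are per window, so they are not directly comparable. Genes with several windows had more letters searched, and a match describes letters, not binding. The stretches with the CRE of KLF11 (chr2:10044034-10044063, plus strand) and the CArG box of KLF7 (chr2:207167289-207167318, minus strand) are shown in the same build with the motif in capitals. The CRE overlaps a CACCC match.
KLF11: atttccagccaTGACGTCAccccggtcctg
KLF7: accacactaaCCATTTAAGGtcaagcaaac

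The libraries held 41002611 to 46755358 counts each, so that 3 counts correspond to 0.0642 to 0.0732 CPM (counts relative to library size, scaled by TMM factors throughout). ATF4 KO and parental libraries were separated on the first principal component (55.7% of variance). ATF4 itself had 8628, 10386 and 9895 counts in ATF4 KO cells, against 10413, 11037 and 10219 in parental cells. Its log2 fold change was -0.19 ± 0.03 (SE, edgeR quasi-likelihood test, adjusted p = 3.19e-07), beside a median of -0.25 over the 100 nearest tested genes on its chromosome. The transcript was thus retained, and its level does not by itself check the knockout. The 9 kidney and renal carcinoma markers summed to 6900 to 7050 CPM in ATF4 KO libraries and 6100 to 6490 CPM in parental libraries. Of 7 endothelial markers 2 had no counts, and their sum was 0.0846 to 0.172 CPM in ATF4 KO cells and 0.119 to 0.182 CPM in parental cells. Of 6 immune markers 3 had no counts, with sums of 0.0729 to 0.254 CPM in ATF4 KO cells and 0.114 to 0.253 CPM in parental cells. The 7 fibroblast and smooth muscle markers summed to 92.6 to 95.7 CPM in ATF4 KO libraries and 106 to 126 CPM in parental libraries. Their part in the results was not tested.

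KLF4 (ENSG00000136826, chromosome 9, 107484852 to 107490482, minus strand) differed most. The protein promotes epithelial differentiation and cell cycle exit, and is a reprogramming factor. It had 96, 108 and 137 counts in ATF4 KO cells, against 27, 33 and 53 counts in parental cells. All knockout libraries lay above all parental ones, and within each group the third library was the highest. In CPM these were 2.33, 2.32 and 2.90 in ATF4 KO cells and 0.621, 0.751 and 1.26 in parental cells. KLF4 averaged 2.52 ± 0.328 CPM in ATF4 KO cells and 0.877 ± 0.337 CPM in parental cells (SD, n = 3 each), a fold of 2.88 and a log2 fold change of 1.53 ± 0.22 (SE). This was the 81st highest of the 15321 fold changes. The median log2 fold change of the 100 nearest tested genes was 0.06. In bulk RNA, more cells with the transcript and more transcript per cell cannot be told apart. The counts are low, and the value moved between 1.33 and 1.87 when libraries were left out in turn.

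KLF2 and KLF5 were the other members of low level that were higher in the knockout. KLF2 (ENSG00000127528, chromosome 19, 16324817 to 16327874, plus strand), a factor of endothelial and T cell quiescence that is induced by flow, had 5.11, 4.90 and 5.94 CPM in ATF4 KO cells, against 3.24, 4.25 and 4.63 CPM in parental cells. The groups did not overlap, although the lowest knockout library stood only just above the highest parental one. The log2 fold change was 0.40 ± 0.13 (SE), and it was no longer called without ATF4 KO replicate 3 (0.31) or without parental replicate 1 (0.26). The endothelial markers were near 0 in both groups, as given above. KLF2 and KLF4 lay on the same side of their group means in 5 of 6 libraries. Deviations within a group of 3 sum to 0 and other gene pairs were not counted, so nothing is read from this. KLF5 (ENSG00000102554, chromosome 13, 73054976 to 73077542, plus strand), which is typical of proliferating epithelium, had 7.51, 7.06 and 6.24 CPM in ATF4 KO cells, against 5.13, 6.39 and 5.22 CPM in parental cells. The groups overlapped, since parental replicate 2 was above ATF4 KO replicate 3. Its log2 fold change of 0.31 ± 0.11 (SE) lost its call without ATF4 KO replicate 1 (0.25) or 2 (0.30) and without parental replicate 1 (0.25) or 3 (0.26).

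KLF6 and KLF7 complete the activator group. KLF6 (ENSG00000067082, chromosome 10, 3775996 to 3785281, minus strand), induced by tissue injury and known as a tumour suppressor, had 609, 637 and 644 CPM in ATF4 KO cells, against 676, 652 and 639 CPM in parental cells. The ranges overlapped by a narrow margin and the log2 fold change of -0.06 ± 0.03 (SE) was not called. The 62 tested genes around KLF6, near the end of chromosome 10, had a median of 0.11. Relative to them the value for KLF6 was -0.17, which was called lower. That fit takes the neighbours' median as fixed and leaves out their spread. KLF6 was also called lower without parental replicate 3 (-0.08). KLF7 (ENSG00000118263, chromosome 2, 207074137 to 207167267, minus strand), a factor of neuronal differentiation, had 73.0, 68.6 and 75.3 CPM in ATF4 KO cells, against 67.6, 67.7 and 66.7 CPM in parental cells. All knockout libraries lay above all parental ones, by a narrow margin. The log2 fold change was 0.10 ± 0.04 (SE), and the call was kept in 7 of 14 alternatives. It was lost when any library other than ATF4 KO replicate 2 was left out (0.09 without ATF4 KO replicate 1, 0.07 without 3, and 0.11, 0.11 and 0.10 without parental replicates 1, 2 and 3).

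The CtBP-binding repressor KLF3 (ENSG00000109787, chromosome 4, 38664196 to 38701042, plus strand), studied in red cells and fat, had 56.7, 57.2 and 58.9 CPM in ATF4 KO cells, against 57.8, 51.6 and 54.5 CPM in parental cells. The groups overlapped, and the log2 fold change was 0.08 ± 0.04 (SE). It was called only without parental replicate 1 (0.12). The antisense gene KLF3-AS1, which overlaps its start, had 25, 36 and 28 counts in ATF4 KO cells and 18, 15 and 19 counts in parental cells, few beside the 2267 to 2786 counts of KLF3. The strand setting of the counting is not given in the sources used here.

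Among the Sin3-binding members, KLF10 and KLF11, known as TGF-beta-inducible early genes, were slightly higher in the knockout. KLF10 (ENSG00000155090, chromosome 8, 102648779 to 102655902, minus strand) had 112, 114 and 114 CPM in ATF4 KO cells, against 110.3, 106 and 107 CPM in parental cells. The groups did not overlap, but the log2 fold change of 0.07 ± 0.03 (SE) was called only with scaling by total counts (0.10). KLF11 (ENSG00000172059, chromosome 2, 10042849 to 10054836, plus strand) had 59.1, 60.6 and 67.1 CPM in ATF4 KO cells, against 58.6, 56.7 and 56.2 CPM in parental cells. ATF4 KO replicate 3 was the farthest from the others, and without it the log2 fold change was 0.06 in place of 0.12 ± 0.04 (SE) and no longer called, nor was it called without parental replicate 2 (0.12) or 3 (0.11). KLF9 (ENSG00000119138, chromosome 9, 70384597 to 70414624, minus strand), induced by glucocorticoids and thyroid hormone, had 2.43, 2.80 and 2.54 CPM in ATF4 KO cells, against 2.28, 3.59 and 2.83 CPM in parental cells. The knockout values lay within the parental range, and the log2 fold change of -0.16 ± 0.16 (SE) turned to 0.024 without parental replicate 2. KLF13 (ENSG00000169926, chromosome 15, 31326855 to 31435665, plus strand), a regulator of the chemokine CCL5 in T cells, had 70.7, 72.9 and 71.7 CPM in ATF4 KO cells, against 73.5, 72.4 and 72.6 CPM in parental cells. The groups overlapped. Its log2 fold change of -0.02 ± 0.04 (SE) was 0.0048 with scaling by total counts.

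**Figure D1:**
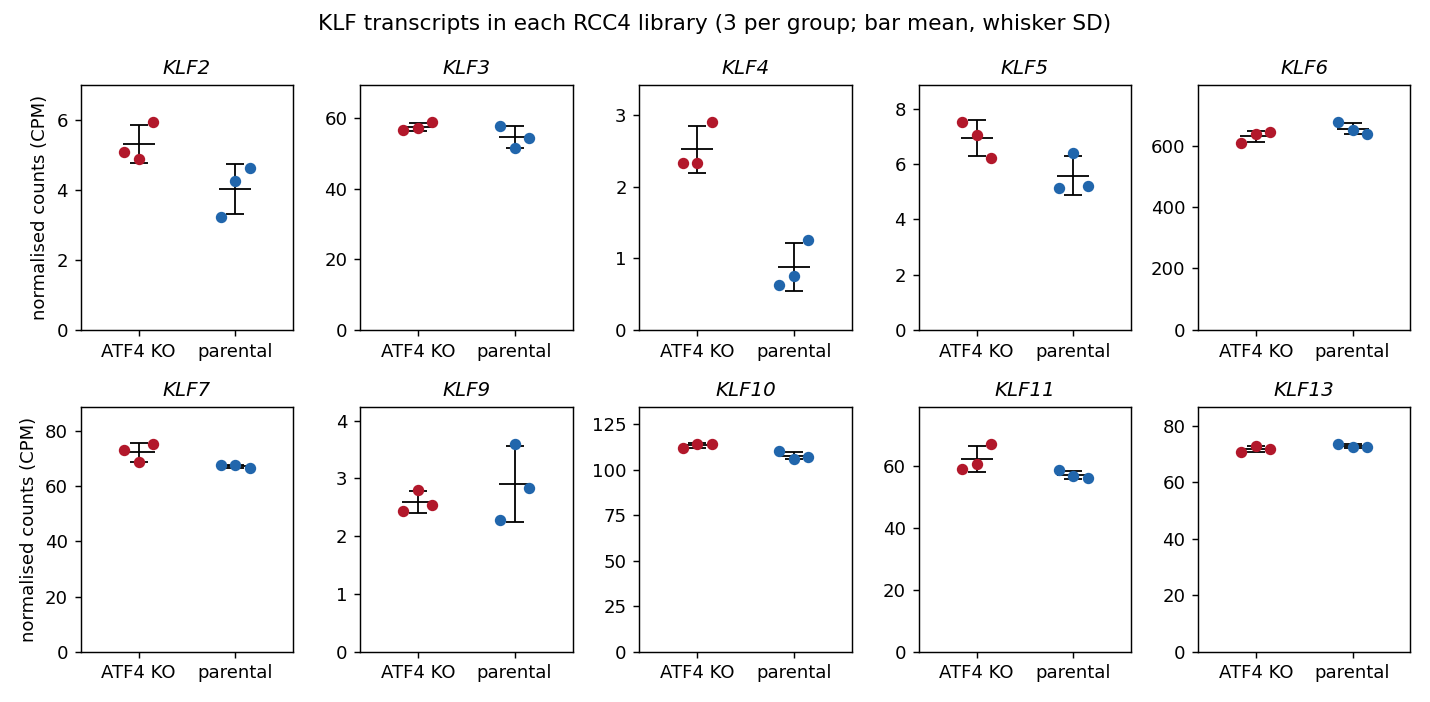
Normalised counts (CPM, linear axes starting at 0) of the 10 KLF genes in each library, ATF4 KO in red and parental in blue. Horizontal bars are means and whiskers SD over 3 libraries. KLF4 lay at 2.32 to 2.90 CPM in ATF4 KO cells against 0.621 to 1.26 CPM in parental cells, while KLF3, KLF5, KLF6, KLF9 and KLF13 overlapped between the groups.

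Among the 10 listed members, 5 were called higher in ATF4 KO cells (KLF2, KLF4, KLF5, KLF7 and KLF11), against 21.2% of all tested genes. Called lower were 0, against 20.8%. These counts do not cover the whole family. Of the tested KLF genes outside this list, KLF8 was called lower (log2 fold change -0.25), and KLF12 and KLF16 were not called. In either direction 42.0% of all tested genes were called at an adjusted p under 0.05. DESeq2 called 4 members higher and 0 lower, against 2829 higher and 2959 lower over all tested genes. With limma-voom 5 members were called higher and 0 lower, against 3180 higher and 3147 lower over all tested genes. The groups did not overlap for 5 of the 10 members, near the 49.6% of all tested genes that did not overlap in either direction. These members (KLF2, KLF4, KLF7, KLF10 and KLF11) were all higher in the knockout. Of the 15321 tested genes, 3874 did not overlap and were higher in the knockout, and 3718 did not overlap and were lower. The median log2 fold change was 0.09 over the members and 0.01 over all tested genes. Called genes were 32.9% of all tested genes with a mean of 1 to 10 CPM, where KLF2, KLF4, KLF5 and KLF9 lie, 50.2% of those at 10 to 100 CPM (KLF3, KLF7, KLF11 and KLF13) and 64.3% of those over 100 CPM (KLF6 and KLF10). Since the members were chosen on this comparison, nothing is read from these shares. The count of members called higher was 3 without ATF4 KO replicate 1, 4 without ATF4 KO replicate 2, 2 without ATF4 KO replicate 3, 3 without parental replicate 1, 3 without parental replicate 2 and 2 without parental replicate 3. Over all tested genes 2791 to 3046 were called higher in these fits, against 3244 with all 6 libraries. With the median of neighbouring genes removed, 2 members were called higher (KLF2 and KLF4) and 1 lower (KLF6), against 2736 higher and 2795 lower over all tested genes. KLF4 was called in all 14 alternatives, but its rise was part of the choice, so these calls are a description only.

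**Figure D2:**
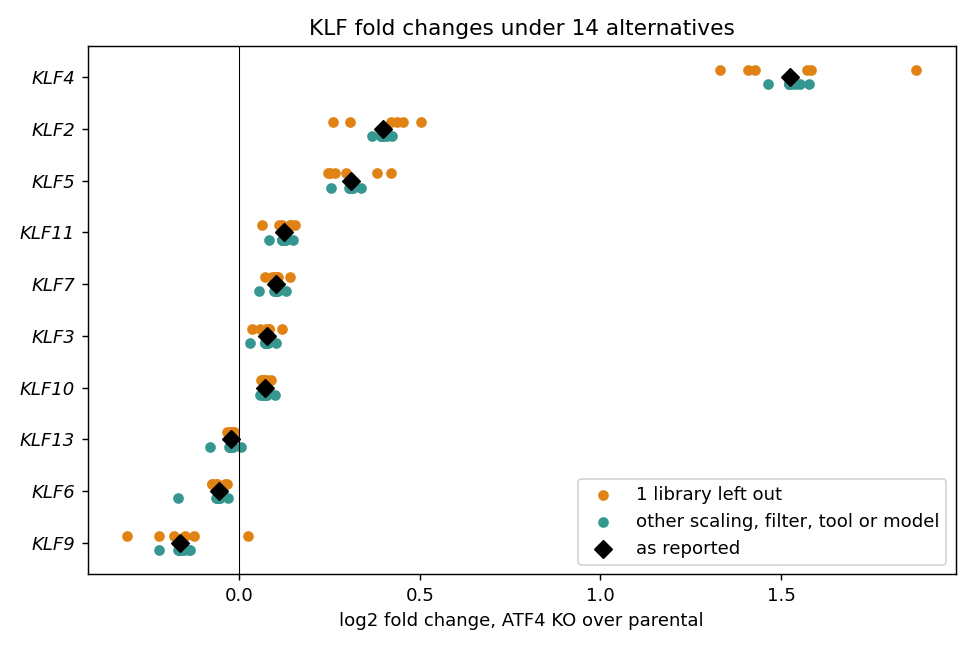
Log2 fold change (ATF4 KO over parental) of each KLF gene as reported (black diamonds), with 1 library left out in turn (orange) and under other scaling, filters, tools or models (green). KLF4 stayed between 1.33 and 1.87, and KLF9 and KLF13 had values on both sides of 0.

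Levels were compared between genes only per length, as CPM per kb of merged exons. KLF6 was the most abundant member, with 103 ± 2.97 CPM per kb in ATF4 KO cells and 107 ± 3.07 in parental cells (SD, n = 3 each). KLF10 followed with 28.3 ± 0.299 CPM per kb in ATF4 KO cells and 26.9 ± 0.538 in parental cells, and KLF11 with 13.6 ± 0.925 in ATF4 KO cells and 12.5 ± 0.271 in parental cells. KLF3, KLF7 and KLF13 lay between 7.41 and 9.36 CPM per kb in ATF4 KO cells and between 7.20 and 9.18 in parental cells. In ATF4 KO cells only KLF7 and KLF13 had overlapping ranges among neighbours in this order, and in parental cells only KLF2 and KLF5. At the low end stood KLF2 (2.63 ± 0.273 CPM per kb in ATF4 KO cells, 2.00 ± 0.355 in parental cells) and KLF5 (1.78 ± 0.166 in ATF4 KO cells, 1.43 ± 0.181 in parental cells). KLF4 had 0.688 ± 0.0897 CPM per kb in ATF4 KO cells and 0.240 ± 0.0921 in parental cells. KLF9 had 0.470, 0.540 and 0.490 CPM per kb in ATF4 KO cells, against 0.440, 0.694 and 0.546 in parental cells. KLF4 was thus the lowest member in parental cells and stood above KLF9 in ATF4 KO cells.

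The summed level of the 10 genes was 170.1, 175 and 179 CPM per kb in ATF4 KO cells, against 178, 173 and 171 in parental cells, and overlapped between the groups. KLF6 made up 58.4%, 59.3% and 58.6% of this sum in ATF4 KO cells, against 61.8%, 61.4% and 60.8% in parental cells. KLF4 made up 0.375%, 0.362% and 0.443% in ATF4 KO cells, against 0.0952%, 0.119% and 0.201% in parental cells. The ratio of KLF6 to KLF4 per length was 156, 164 and 132 in ATF4 KO cells, against 649, 518 and 303 in parental cells. KLF4 transcripts were therefore a small share of this sum in both groups.

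**Figure D3:**
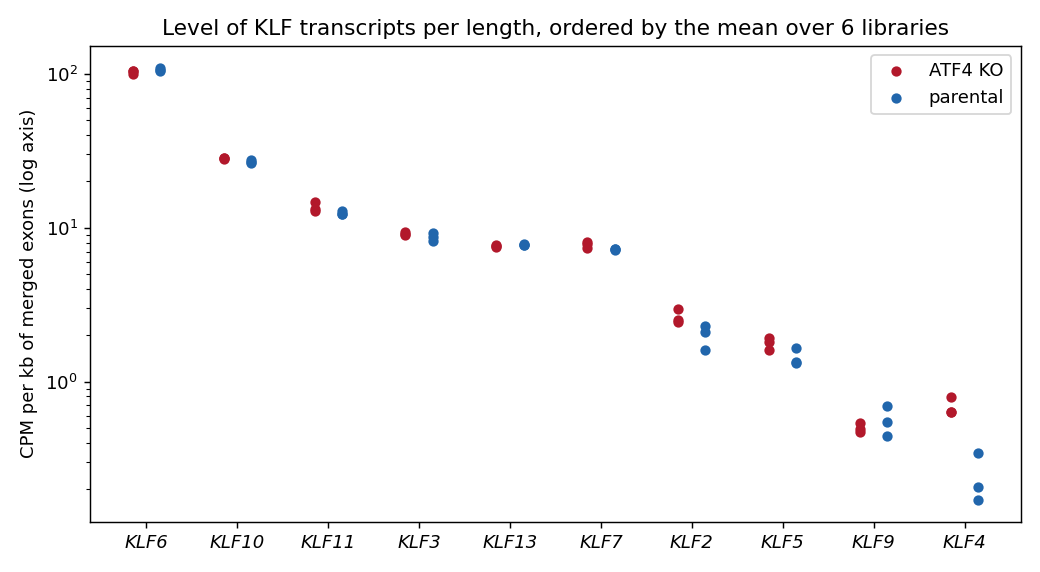
Level of each KLF gene per length (CPM per kb of merged exons, log axis) in each library, ATF4 KO in red left of parental in blue, ordered by the mean over 6 libraries. KLF6 stood at 103 CPM per kb in ATF4 KO cells and 107 in parental cells, and KLF4 at 0.688 CPM per kb in ATF4 KO cells and 0.240 in parental cells.

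The genes whose profile was nearest to KLF4 were taken by the root mean square difference in log2 CPM, centred on each gene's mean, over the 6 libraries. NEURL1B was nearest (0.201), followed by DRAXIN (0.211), an identifier without a name (ENSG00000286853, 0.215), ATP8B2 (0.218) and a further unnamed identifier (ENSG00000284377, 0.225). DRAXIN, a secreted axon guidance protein, averaged 8.42 CPM in ATF4 KO cells and 3.11 CPM in parental cells. ATP8B2, a phospholipid flippase, had a log2 fold change of 1.76 and NEURL1B, a ubiquitin ligase of the Notch pathway, one of 1.32. These genes were chosen for likeness to KLF4, so their fold changes are a description.

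The other KLF and SP genes that were tested lay between -0.26 and 0.24 in log2 fold change, a range that only KLF4, KLF2 and KLF5 among the members exceeded. Of 17 further genes 9 were tested, of which 2 rose (22.2%, against 21.2% of all tested genes) and 1 fell (11.1%, against 20.8%), with a median log2 fold change of 0.01. SP3, a GC box factor, had 111, 107 and 115 CPM in ATF4 KO cells, against 102, 99.6 and 98.7 CPM in parental cells, with a log2 fold change of 0.15 ± 0.03 (SE, edgeR adjusted p = 1.42e-04). SP2 rose by 0.17 on the log2 scale (adjusted p = 0.0476). It was 0.08 (adjusted p = 0.379) relative to neighbouring genes, and without any 1 library only 1 gene of this list was called higher. KLF8, a CtBP-binding repressor on chromosome X, had 26.8, 30.2 and 31.3 CPM in ATF4 KO cells, against 34.8, 36.3 and 34.4 CPM in parental cells, a log2 fold change of -0.25 ± 0.05 (SE, adjusted p = 1.01e-04). The tested genes around it had a median of -0.25, and relative to them KLF8 was at -0.01 (adjusted p = 0.918). SP1, the founding member of the SP genes, had a log2 fold change of -0.03 (adjusted p = 0.409), KLF16 one of 0.01 (0.858) and KLF12 one of 0.09 (0.172). SP4 (-0.09), SP6 (-0.26) and SP8 (0.24) were not called either. KLF1, KLF14, KLF18 and SP9 had no counts, and KLF15, KLF17, SP5 and SP7 had at most 5 counts in a library.

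**Figure D4:**
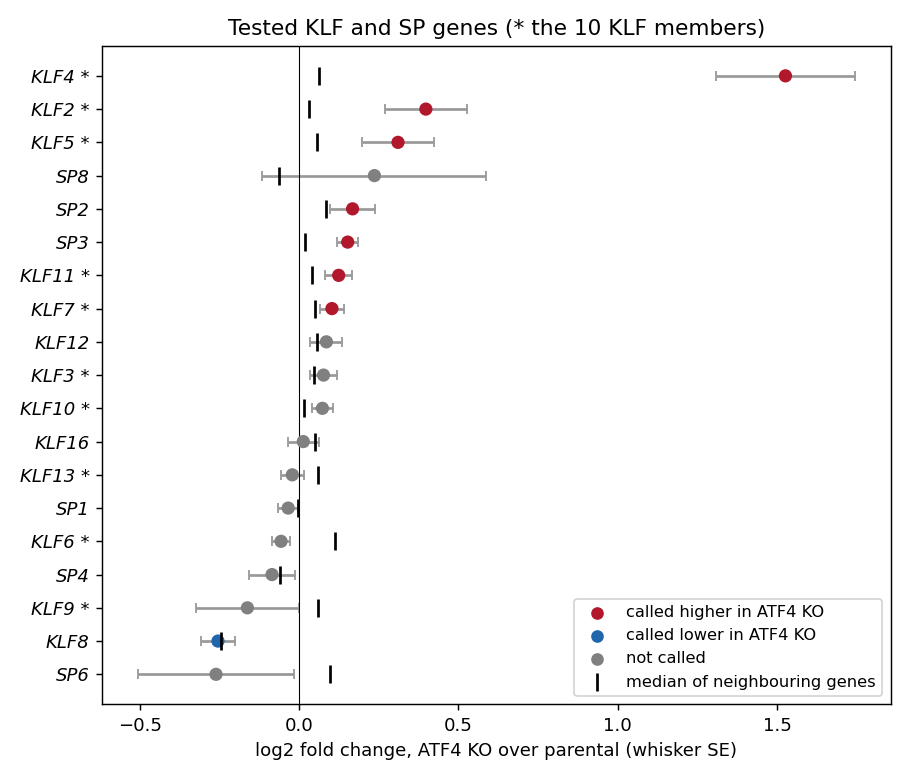
Log2 fold change (ATF4 KO over parental) of the 19 tested KLF and SP genes, whiskers SE, coloured by whether the gene was called. Stars mark the 10 members, and short vertical bars mark the median of neighbouring tested genes. KLF4 stood alone at 1.53, and KLF8 coincided with its neighbours at -0.25.

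Cofactors and ubiquitin ligases of the family were measured in all 22 cases, and 6 rose (27.3%, against 21.2% of all tested genes) and 3 fell (13.6%, against 20.8%). The largest difference was in FBXO32, an F-box protein reported to mark KLF4 for degradation. It fell to 52.5, 53.3 and 58.8 CPM in ATF4 KO cells, against 77.0, 79.2 and 79.8 CPM in parental cells. The log2 fold change was -0.52 ± 0.04 (SE, edgeR adjusted p = 6.40e-16). Whether this bears on KLF4 was not tested, and only RNA was measured. The deacetylase HDAC1 rose (115 ± 3.82 CPM in ATF4 KO cells and 98.8 ± 2.06 CPM in parental cells, SD, n = 3 each, adjusted p = 1.13e-07), as did the corepressor NCOR1 (log2 fold change 0.15, adjusted p = 5.33e-05). SIN3A (0.17, adjusted p = 4.01e-04), CTBP1 (0.10, adjusted p = 0.0111), CREBBP (0.10, adjusted p = 0.0150) and VHL (0.15, adjusted p = 0.0179) were named after their values were seen. All gene lists given here were chosen with earlier results of these data known, so their p-values are a description. The acetyltransferase EP300 on chromosome 22 fell (-0.23, adjusted p = 1.90e-07), beside a median of -0.27 for its neighbours. The ligase ITCH on chromosome 20 fell as well (-0.12, adjusted p = 0.00338), beside a neighbour median of -0.17. Relative to their neighbours EP300 was at 0.04 and ITCH at 0.06, and in that fit 2 genes of the list were called higher.

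Of 25 regulators upstream of the family 24 were tested, and 4 rose (16.7%, against 21.2% of all tested genes) and 5 fell (20.8%, the same share as over all tested genes). ERK5 (MAPK7), the kinase that induces KLF2 and KLF4 through MEF2 factors, had 27.3, 29.5 and 30.1 CPM in ATF4 KO cells, against 22.3, 23.6 and 21.4 CPM in parental cells. Its log2 fold change was 0.37 ± 0.06 (SE, edgeR adjusted p = 2.97e-07). Whether any regulator in this list bears on the KLF genes was not tested. MEF2A rose by 0.23 (adjusted p = 6.62e-05), and the ERK5 kinase MEK5 (MAP2K5) fell by 0.17 on the log2 scale (adjusted p = 0.0484). The other MEF2 genes listed, MEF2C (-0.47, adjusted p = 0.0963) and MEF2D (0.03, adjusted p = 0.684), were not called and were named afterwards. NOTCH1, a receptor, averaged 18.7 ± 0.334 CPM in ATF4 KO cells and 14.6 ± 0.697 CPM in parental cells (SD, n = 3 each, adjusted p = 1.31e-05), and the SRF partner ELK3 rose by 0.18 (adjusted p = 4.66e-06). TGFB1, the ligand that induces KLF10 and KLF11, fell to 243, 243 and 239 CPM in ATF4 KO cells, against 288, 293 and 282 CPM in parental cells, a log2 fold change of -0.25 ± 0.03 (SE, adjusted p = 5.36e-11). The thyroid hormone receptor THRB fell as well (-0.35, adjusted p = 7.28e-08). The SRF partners MRTFA on chromosome 22 (-0.21, adjusted p = 1.72e-05) and ELK1 on chromosome X (-0.19, adjusted p = 3.14e-04) fell beside neighbour medians of -0.26 and -0.25, and both were at 0.05 relative to these neighbours.

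The immediate early genes outside the family were part of the choice of members, so their calls are given as a description and nothing is read from them. Of 40 listed genes 38 were tested, 8 were called higher (21.1%, against 21.2% of all tested genes) and 18 lower (47.4%, against 20.8%), and the median log2 fold change was -0.11, against 0.01 over all tested genes. EGR1, a growth-factor-induced zinc finger factor, averaged 415 ± 13.9 CPM in ATF4 KO cells and 551 ± 29.3 CPM in parental cells (SD, n = 3 each). BTG1 was at -0.50, TRIB1 at -0.45 and IER5 at -0.64 on the log2 scale. FOS, at 0.21, was among those called higher and was named after its value was seen. Relative to its neighbours it was at 0.13 and not called. The number called higher was 5 with DESeq2, 5 with the neighbours' median removed, 5 without ATF4 KO replicate 2, 3 without ATF4 KO replicate 3 and 5 without parental replicate 1.

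Of 26 listed KLF target genes 17 were tested. Of these 4 rose (23.5%, against 21.2% of all tested genes) and 5 fell (29.4%, against 20.8%), shares not far from those over all genes, and the median log2 fold change was -0.01. MAOA, monoamine oxidase A, whose promoter KLF11 binds, had 14.7, 14.7 and 15.7 CPM in ATF4 KO cells, against 80.3, 82.9 and 82.2 CPM in parental cells (log2 fold change -2.44 ± 0.05, SE, edgeR adjusted p = 3.19e-43). CCND1, the cyclin D1 gene, fell to 69.8, 67.3 and 65.9 CPM in ATF4 KO cells, against 145, 138 and 151 CPM in parental cells (-1.10 ± 0.04, SE, adjusted p = 2.28e-32). The neighbours of MAOA on chromosome X had a median of -0.24 and those of CCND1 one of -0.14, and relative to them MAOA was at -2.20 and CCND1 at -0.96. S1PR1, a KLF2 target in T cells, also fell (-0.54, adjusted p = 4.13e-05), as did KRT19 (-0.08, adjusted p = 0.0488) and TGFB1, which belongs to the upstream list too. Among the genes that rose, CCNB1, the cyclin B1 gene, averaged 92.8 ± 3.02 CPM in ATF4 KO cells and 53.2 ± 5.90 CPM in parental cells (SD, n = 3 each, adjusted p = 4.50e-06). BIRC5, which encodes survivin, rose by 0.67 (adjusted p = 1.57e-07), ODC1 of polyamine synthesis by 0.17 (adjusted p = 2.79e-04) and PLAU, the urokinase gene, by 0.19 (adjusted p = 1.07e-03). CDKN1A, the p21 gene and a target of KLF4 and KLF6, was named afterwards. It averaged 446 CPM in ATF4 KO cells and 449.8 CPM in parental cells and was not called. Whether any of these differences depends on a KLF protein was not tested.

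**Figure D5:**
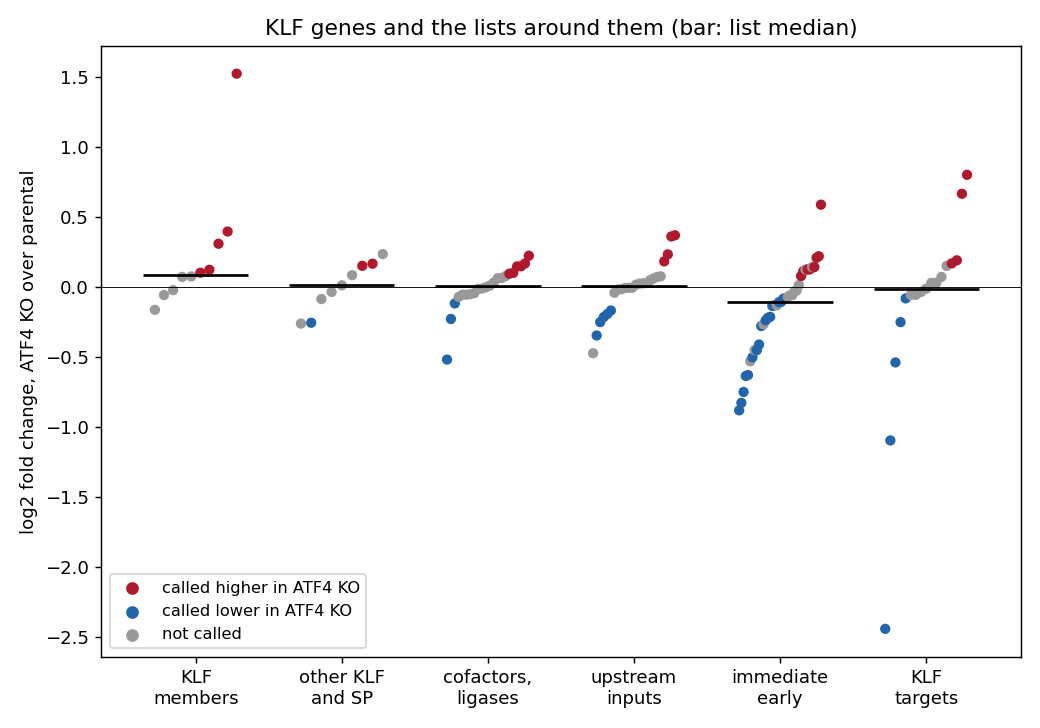
Log2 fold change (ATF4 KO over parental) of every tested gene in the 10 KLF members and in 5 lists around them, each point a gene coloured by its call and each bar the list median. The medians were 0.09 for the KLF members and -0.11 for the immediate early genes, and the lowest point is MAOA at -2.44.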

How the data were processed

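RCC4 libraries (3 ATF4 KO and 3 parental, grouped by their labels) were prepared from total RNA (TruSeq Stranded mRNA). The deposited table holds raw counts for 60683 Ensembl genes, as the authors made them. The submitters' processing notes name bcl2fastq 2.20, cutadapt, STAR, HTSeq and the build GRCh38. For the other versions, the annotation release and the strand setting, nothing is stated in the sources used here. By default HTSeq drops reads that fit more than 1 gene. All columns of per-sample values were used. Symbols came from a gene name table (60370 identifiers) and GENCODE 29 (a further 289), which also gave coordinates and exon lengths and may differ from the release used for counting.

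Genes were filtered with edgeR 4.0.16 (filterByExpr, R 4.3.3) to 15321, scaled by TMM and compared by its robust quasi-likelihood test without a replicate term. Benjamini-Hochberg adjustment covered the 15321 genes, and an adjusted p below 0.05 was called. Log2 fold changes are ATF4 KO over parental. Neighbours are up to 50 tested genes on either side of a gene. Their median was removed as a fixed value, so p-values relative to neighbours leave out the neighbours' spread. The members and all gene lists were chosen with earlier results of these data known. Named genes were the 10 members, the tested KLF and SP genes, ATF4, the 5 genes nearest to KLF4, and in each list the 4 smallest p-values, called genes with a log2 change of at least 1 in size and all called genes where a direction had 5 or fewer. Others are given as chosen afterwards.

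Replicates of a group differed by 3.59 to 5.80 times sampling noise and libraries of different groups by 37.9 to 44.1 times (chi-square per degree of freedom), so all 6 were counted. Alternatives were RLE and total-count scaling, DESeq2 1.42.0, limma-voom (limma 3.58.1), no filter, a strict filter, a replicate block, removal of the neighbours' median and leaving out each library. Promoter windows and motifs came from RefSeq sequences.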

Additional observations from a re-analysis of the deposited data

How the results depend on the processing

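With the median of neighbouring genes removed, 2 KLF members were called higher and 1 lower, 1 other KLF or SP gene higher and 0 lower, 2 cofactors or ligases higher and 5 immediate early genes higher. Over all tested genes 2736 were called higher and 2795 lower in that fit. 1 other KLF or SP gene was called higher with RLE scaling, with DESeq2 and without the low-count filter, and 5 immediate early genes were called higher with DESeq2. With each library left out in turn, 2 to 4 members were called higher and 0 to 1 lower, 1 other KLF or SP gene higher, and 3 to 6 immediate early genes higher. Over all tested genes these fits called 2791 to 3046 higher and 2803 to 3056 lower. KLF9 ranged from -0.31 to 0.024 with a library left out, reversing to 0.024 without parental replicate 2, and KLF13 reversed to 0.0048 with total-count scaling. Among the single-member values 116 kept direction and side of the threshold, 18 lost the call, 4 gained it and 2 reversed. In the per-length order, longest transcripts in place of merged exons kept 8 of 10 ranks (KLF4 and KLF9 changed places), and total-count scaling kept 10. No scaling moved the median of all genes by over 0.1 on the log2 scale. With the replicate number as a block, 5 members were called higher and 0 lower, as without it. Deviations of same-numbered libraries correlated at -0.0277, 0.0063 and -0.0155, so no pairing by number was seen in these values. Whether same-numbered libraries shared a culture day or batch is not in the labels. The cause of the shifts between settings was not tested. Among the 10 members KLF4 had the fewest counts, 27 to 53 in parental libraries.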
